A study of Homo sapiens with 12 samples.

Results

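Collagen genes and 12 genes for other secreted matrix proteins were followed in 2 human breast cancer cell lines with and without a plant extract. The set holds every gene of the deposited table whose symbol has the form of a collagen chain (44 genes, COL1A1 to COL28A1), together with FN1, SPARC, LUM, THBS1, THBS2, POSTN, TGFBI, LOX and LOXL1 to LOXL4, in all 56 of 19516 genes. Reads were too few for a test in 20 of them, and 36 were tested, 25 of these collagens. The 4 groups, with 3 RNA-seq libraries each, were MDA-MB-231 cells given an aqueous extract of Kalanchoe pinnata at 140 µg/mL (libraries E7 to E9), MDA-MB-231 controls (E1 to E3), HCC1937 cells given 66 µg/mL of the extract (E31 to E33) and HCC1937 controls (E25 to E27), all collected at 72 h. Kalanchoe pinnata is a succulent used in traditional medicine, and the series asks which genes of cell migration respond to it. Both lines are of triple-negative breast cancer, a class without estrogen and progesterone receptors and without HER2 amplification, and each line is a single established line. MDA-MB-231 grew in DMEM and HCC1937 in RPMI 1640, both with serum, so line, medium and extract concentration cannot be told apart. The sources used here give neither the vehicle of the controls nor whether the libraries of a group came from separate cultures.

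Collagens are triple helices of alpha chains that assemble outside the cell into fibrils, sheet-like networks or beaded filaments. Chains of a type are encoded by separate genes and must pair inside the cell, where prolines and lysines are hydroxylated before export. Lysyl oxidases then cross-link the helices, and glycoproteins such as fibronectin tie the fibres to integrin receptors on cells. Fibroblasts make most of the fibrillar matrix of a breast tumour, while epithelial and carcinoma cells make the basement membrane and part of the fibronectin, type VI collagen and cross-linking enzymes.

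Library totals ran from 16170545 to 31337431 counts, so that 3 counts stand for 0.099 to 0.213 CPM, a read count brought to the same scaled depth in every library. E7 stood apart from the other libraries. Its mitochondrial genes took 10.7% of counts, against 4.63% in E8 and 4.78% in E9, and the biological coefficient of variation was 0.296 in its group and 0.0415 to 0.0451 in the others. Of the 7 basal and epithelial markers, all had reads in HCC1937, where they summed to 1299 to 1329 CPM with extract and 867 to 886 CPM in controls. In MDA-MB-231 they summed to 7.67 to 17.4 CPM with extract and 10.8 to 13.2 CPM in controls. EPCAM led there, at 9.9 CPM with extract and 12.1 CPM in controls, and KRT17 had 88 reads with extract and 6 in controls. KRT5, KRT6B and CDH1 had no read in MDA-MB-231. The mesenchymal list, led by VIM, summed to 3469 to 5907 CPM in MDA-MB-231 with extract and to 3725 to 3905 CPM in its controls. In HCC1937 the list summed to 17.4 to 20.7 CPM with extract and 25.4 to 27.5 CPM in controls. VIM alone averaged 3736 CPM in MDA-MB-231 controls. SNAI2 went the other way, at 7.28 CPM in MDA-MB-231 controls and 11.3 CPM in HCC1937 controls. CDH2 had 17 reads in MDA-MB-231 controls and 7 in HCC1937 controls. Of the 11 fibroblast and smooth muscle markers, DCN and TCF21 had no read in any library. The list summed to 42.6 to 84.9 CPM with extract and 22.1 to 24.9 CPM in controls of MDA-MB-231, where TAGLN led it. In HCC1937, where NOTCH3 led it, the sums were 95.9 to 106 CPM with extract and 237 to 255 CPM in controls. The part of these marker lists in the results below was not tested, and in RNA from whole cultures fewer cells of a type and less RNA per cell cannot be told apart.

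Set against transcript length (CPM per kb of the longest protein-coding transcript), TGFBI had the highest level of all members in every group. This secreted adhesion protein, which binds collagens and integrins, stood at 129 CPM per kb in MDA-MB-231 with extract and 123 CPM per kb in its controls. In HCC1937 its levels were 174 CPM per kb with extract and 93.8 CPM per kb in controls. In HCC1937 controls the next levels were those of COL6A1 at 70.3 CPM per kb, COL6A2 at 55.6 and COL4A2 at 33.6. In MDA-MB-231 controls they were those of FN1, the fibronectin gene, at 48.5 CPM per kb, COL13A1 at 48.1 and COL6A2 at 33.7. Type I collagen, the main collagen of connective tissue, was represented by one chain alone. COL1A1 averaged 18.8 ± 0.969 CPM in HCC1937 controls and 21.3 ± 1.65 CPM in MDA-MB-231 controls (SD, n = 3 each), while its partner chain COL1A2 had 3 reads over all 12 libraries. COL6A3, the third chain of type VI collagen, had 75 reads over the 12 libraries, the most of any member not tested, and POSTN and COL25A1 had none. The other members not tested were thus at 75 reads or fewer, and their absence at greater depth is not shown.

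**Figure D1:**
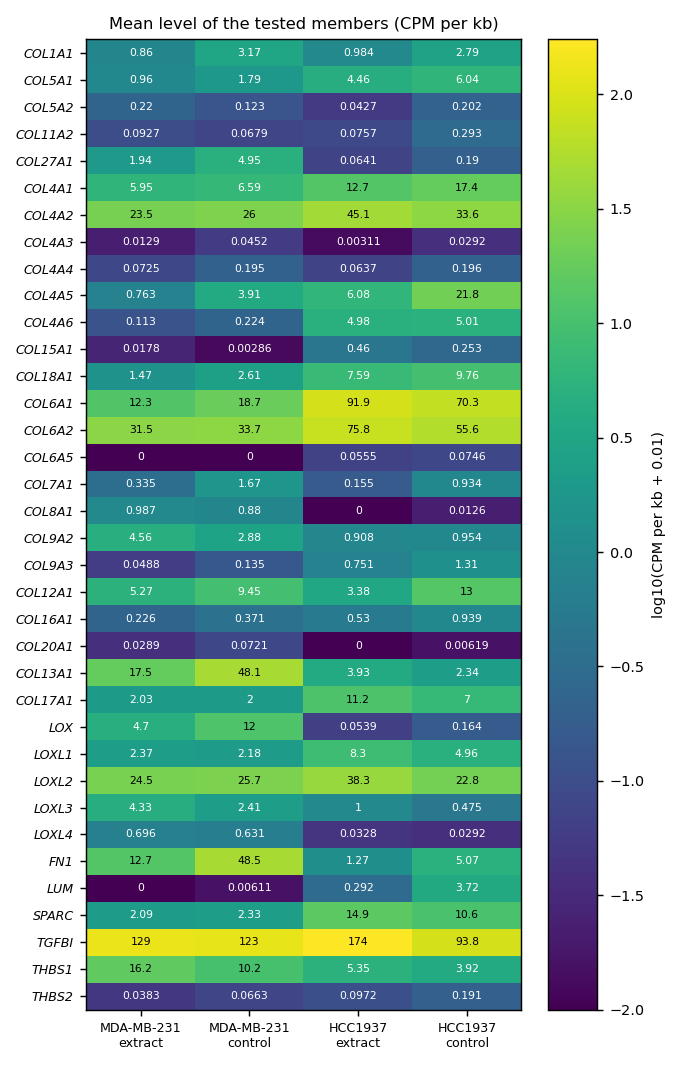
Mean level of the 36 tested members in the 4 groups (columns, 3 libraries each), in CPM per kb of transcript, with genes ordered by role from fibrillar collagens at the top to glycoproteins at the bottom and colour on a log10 scale. TGFBI is the highest row in each column, from 93.8 to 174 CPM per kb, and LUM, COL6A5 and COL15A1 are at or near 0 in MDA-MB-231.

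The comparison of the control groups asks how the matrix programme of the 2 lines differs before any extract. Of the 36 tested members, 17 were higher in HCC1937 controls than in MDA-MB-231 controls and 12 were lower, with 7 not called. Over all genes tested the shares called were 38.6% higher and 36.5% lower. Of the 8 basement membrane and multiplexin collagens 5 were higher in HCC1937 and none lower, and of the 5 cross-linking enzymes 1 was higher and 3 were lower. COL4A6, a chain of epithelial basement membranes, had 33.1, 33.7 and 34.7 CPM in HCC1937 controls, against 0.937, 1.76 and 1.84 CPM in MDA-MB-231 controls (log2 fold change 4.48 ± 0.21 (SE), edgeR adjusted p = 3.46e-09). COL17A1, the hemidesmosome collagen that anchors basal epithelial cells, had 42.0, 39.8 and 37.8 CPM in HCC1937 controls, against 10.7, 10.2 and 13.1 CPM in MDA-MB-231 controls (1.81 ± 0.11, edgeR adjusted p = 2.3e-08). COL6A1 had 306, 304 and 284 CPM in HCC1937 controls, against 78.9, 81.4 and 77.6 CPM in MDA-MB-231 controls (1.91 ± 0.11, edgeR adjusted p = 2.71e-08). In each of these genes the lowest HCC1937 library lay above the highest MDA-MB-231 library. SPARC, a collagen-binding glycoprotein that modulates adhesion, had 40.5, 38.0 and 38.8 CPM in HCC1937 controls and 8.33, 8.54 and 9.05 CPM in MDA-MB-231 controls (2.18 ± 0.08, edgeR adjusted p = 7.51e-10). LUM, a small leucine-rich proteoglycan of collagen fibrils and itself one of the fibroblast markers, had 949 reads over the HCC1937 controls and 1 over the MDA-MB-231 controls.

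Lower in HCC1937 were LOX, COL27A1, COL13A1 and FN1. LOX, the founding lysyl oxidase, had 0.96, 0.495 and 1.05 CPM in HCC1937 controls, against 59.7, 61.6 and 63.1 CPM in MDA-MB-231 controls, a log2 fold change of -6.20 ± 0.21 (edgeR adjusted p = 3.85e-10). COL27A1, a fibrillar collagen best known from cartilage, had 1.46, 1.32 and 1.65 CPM in HCC1937 controls, against 35.4, 41.6 and 38.6 CPM in MDA-MB-231 controls (-4.70 ± 0.16, edgeR adjusted p = 2.96e-10). COL13A1, a transmembrane collagen of cell-matrix junctions, had 7.3, 7.32 and 7.77 CPM in HCC1937 controls, against 154, 154 and 152 CPM in MDA-MB-231 controls (-4.36 ± 0.15, edgeR adjusted p = 3.82e-10). LOXL3 was lower as well (-2.34 ± 0.12, edgeR adjusted p = 9.75e-09), as were FN1 (-3.26 ± 0.36, edgeR adjusted p = 6.67e-06) and THBS1 (-1.38 ± 0.24, edgeR adjusted p = 0.000241). Groups did not overlap in 33 members, with 20 higher and 13 lower in HCC1937, where 45.3% and 43.0% of all genes tested were so. The order of the lines was kept for the 8 members with the smallest p in every alternative run. An offset for transcript length and GC content (explained below) changed the calls of 5 members. It ended the difference for COL6A2, at -0.03 with the offset and 0.72 ± 0.08 without. With the offset COL1A1 (-0.96, against -0.19 without it), LOXL2 (-0.56, against -0.17) and COL4A2 (-0.46, against 0.37) were lower in HCC1937, and COL12A1 was higher (0.46 with and without it). The basement membrane and multiplexin collagens were then 5 higher and 1 lower, and the cross-linking enzymes 1 higher and 4 lower. The values of COL6A1 and COL18A1 with the offset were 1.23 and 0.62, against 1.91 and 1.90 without it.

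Extract was compared with control within each line to ask which of these transcripts change. In MDA-MB-231, 4 of the 36 members rose and 14 fell, beside 32.9% of all genes that rose and 32.7% that fell. In HCC1937, 11 rose and 16 fell, beside 32.7% and 39.0% of all genes. The median log2 fold change of the members was -0.66 in MDA-MB-231, beside 0.00 for all genes, and -0.44 in HCC1937, beside -0.16. For the 25 tested collagens alone, 2 rose and 12 fell in MDA-MB-231 (median -0.81), and 6 rose and 12 fell in HCC1937 (median -0.80, or -0.45 with 2 genes of too few reads set at the bound that 3 counts allow). The comparisons rest on separate controls, and 11 members fell in both lines, while LOXL3 alone rose in both, beside 25.3% of all genes tested that fell in both and 24.1% that rose in both. COL13A1 and COL6A1 fell in MDA-MB-231 and rose in HCC1937, and COL5A2 did the opposite. Groups did not overlap in 19 members in MDA-MB-231, 2 higher and 17 lower with extract, where 32.5% and 35.2% of all genes were so. In HCC1937 they did not overlap in 30 members, 12 higher and 18 lower, where the shares of all genes were 38.3% and 43.8%. The count of rises in MDA-MB-231 rested on E7, without which 9 members rose, and 1 or 2 rose on leaving out E1, E2, E8 or E9.

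**Figure D2:**
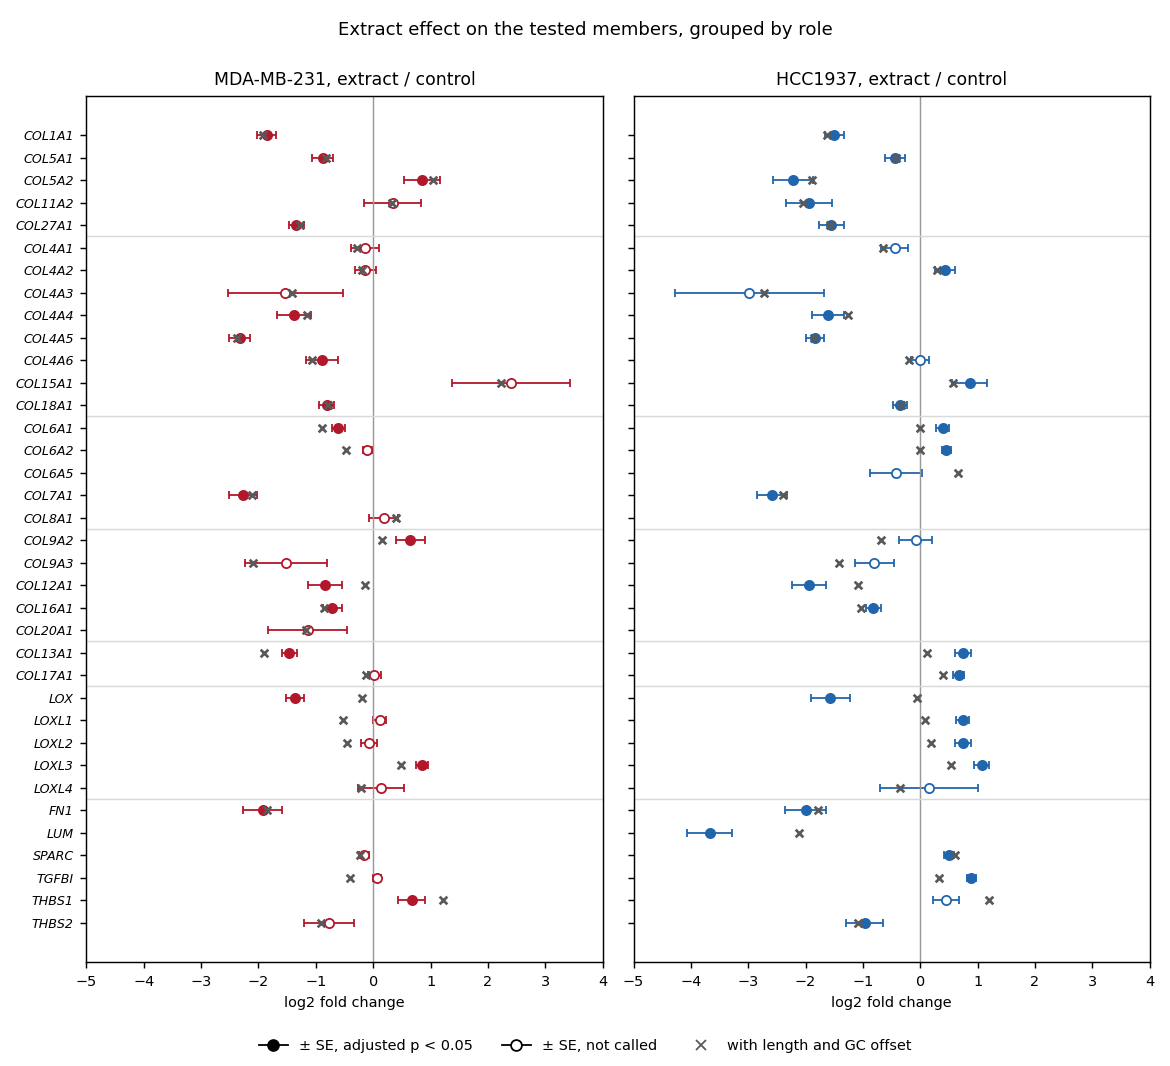
Log2 fold change, extract over control, of the tested members in MDA-MB-231 (left) and HCC1937 (right), ordered by role, with bars for the SE; filled points passed an adjusted p of 0.05, open points did not, and crosses give the value with the length and GC offset. Members with no reads in one group or at most 3 in both are left blank. COL4A5, COL7A1, COL1A1 and FN1 lie at -1.50 or below in both panels, and LOXL3 lies above 0 in both.

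The fibrillar collagens build the banded fibres of connective tissue. Of 5 tested, 1 rose and 3 fell in MDA-MB-231, and all 5 fell in HCC1937. Over all genes tested, 32.9% rose and 32.7% fell in MDA-MB-231, and 32.7% rose and 39.0% fell in HCC1937. Counts of so few genes, here and for the roles below, are descriptions beside these shares. COL1A1 had 3.91, 6.64 and 6.8 CPM in MDA-MB-231 with extract, against 22.5, 22.1 and 19.5 CPM in controls. In HCC1937 it had 6.44, 5.95 and 7.47 CPM with extract, against 19.9, 18.4 and 18 CPM in controls. The highest extract library was below the lowest control library in both lines, and the log2 fold changes were -1.86 ± 0.17 in MDA-MB-231 (edgeR adjusted p = 2.34e-06) and -1.50 ± 0.17 in HCC1937 (edgeR adjusted p = 8.03e-06). COL27A1 had 12.2, 16.4 and 16.6 CPM in MDA-MB-231 with extract, against 35.4, 41.6 and 38.6 CPM in controls, with no overlap (-1.34 ± 0.13, edgeR adjusted p = 2.58e-06), and it fell in HCC1937 at a low level (0.5 ± 0.0628 CPM with extract, 1.48 ± 0.167 CPM in controls). COL5A1, a chain of the type V collagen that nucleates fibrils, averaged 8.14 ± 2.52 CPM with extract and 15.2 ± 0.599 CPM in controls of MDA-MB-231 (-0.88 ± 0.18, edgeR adjusted p = 0.00113). In HCC1937 it averaged 37.8 ± 3.27 CPM with extract and 51.2 ± 3 CPM in controls (-0.44 ± 0.17, edgeR adjusted p = 0.0328), a call that ended with RLE scaling and on leaving out any of E25, E26, E31, E32 or E33 (edgeR adjusted p = 0.0585 to 0.136). Its partner COL5A2 was scarce, with 103 reads with extract and 53 in controls of MDA-MB-231; the reads in HCC1937 were 23 with extract and 121 in controls. Its rise in MDA-MB-231 (0.85 ± 0.31, edgeR adjusted p = 0.0325) was lost on leaving out E1, E2, E8 or E9 (edgeR adjusted p = 0.084 to 0.134) and in the libraries of the line alone (edgeR adjusted p = 0.0986).

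Type IV collagen forms the network of basement membranes, and its genes lie head to head in pairs that share the stretch between their start sites. COL4A1 and COL4A2 start 127 bases apart on chromosome 13, and COL4A5 and COL4A6 start 380 bases apart on the X chromosome at the nearer of the 2 listed COL4A6 starts. The stretches below are shown because they lie between partner genes whose transcripts moved unequally. They come from RefSeq on GRCh38.p14, are written 5′ to 3′ on the plus strand, and stand in lower case with capitals marking the motifs CCAAT and GGGCGG on either strand. The first is the whole interval between the starts of COL4A1 (which is read leftwards) and COL4A2 (read rightwards), chr13:110307158-110307283, and the second is the 250 bases before COL4A5, chrX:108439588-108439837.
COL4A1 to COL4A2: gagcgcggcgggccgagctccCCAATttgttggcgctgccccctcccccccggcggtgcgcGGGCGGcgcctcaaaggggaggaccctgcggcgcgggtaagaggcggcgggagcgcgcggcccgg
before COL4A5, towards COL4A6: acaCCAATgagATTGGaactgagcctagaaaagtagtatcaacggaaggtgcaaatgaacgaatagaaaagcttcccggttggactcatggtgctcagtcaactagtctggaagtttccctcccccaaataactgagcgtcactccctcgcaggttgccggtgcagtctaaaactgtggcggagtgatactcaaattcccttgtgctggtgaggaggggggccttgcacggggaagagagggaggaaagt
The first stretch has 80.2% GC, with CCAAT and GGGCGG once each, and the second has 51.2% GC, with CCAAT on each strand and no GGGCGG. Neither holds TATAAA or TGANTCA on either strand. Among 34943 promoter windows of 300 bases, 34.6% hold CCAAT, 44.9% GGGCGG, 11.6% TATAAA and 7.7% TGANTCA on either strand, and these matches are descriptions of the letters.

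Of the 8 tested genes for basement membrane collagens and the related types XV and XVIII, 4 fell and none rose in MDA-MB-231. The shares of all genes there were 32.7% and 32.9%. In HCC1937 3 fell and 2 rose, beside 39.0% and 32.7% of all genes. Among the 8, COL4A5 fell furthest of those with at least 5 CPM. It had 3.27, 4.95 and 6.62 CPM in MDA-MB-231 with extract, against 23.7, 27.1 and 25.3 CPM in controls, and 39.7, 40.9 and 37.6 CPM in HCC1937 with extract, against 136, 147 and 140 CPM in controls. No extract library reached its controls, and the log2 fold changes were -2.33 ± 0.18 in MDA-MB-231 (edgeR adjusted p = 4.7e-07) and -1.84 ± 0.16 in HCC1937 (edgeR adjusted p = 1.04e-06). Its neighbour COL4A6 had 33.2, 32.9 and 34.8 CPM in HCC1937 with extract, against 33.1, 33.7 and 34.7 CPM in controls, groups that overlap (-0.01 ± 0.16, edgeR adjusted p = 0.977). COL4A6 reads per 100 COL4A5 reads were accordingly 85.5 ± 6.27 with extract and 24 ± 0.998 in controls of HCC1937 (SD, n = 3 each). In MDA-MB-231 the ratio was 15.3 ± 3.53 with extract and 5.92 ± 1.74 in controls, on 51 and 90 COL4A6 reads. COL4A6 itself was called as lower there, though its groups overlapped (-0.90 ± 0.28, edgeR adjusted p = 0.0137, and -1.07 with the offset). That call was lost in the libraries of the line alone and on leaving out E2 or E3 (edgeR adjusted p = 0.0512 to 0.0819).

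The other pair also came apart in HCC1937. COL4A1 had 82.1, 81.0 and 89.4 CPM with extract, against 114, 121 and 111 CPM in controls, and COL4A2 had 298, 280 and 301 CPM with extract, against 219, 228 and 207 CPM in controls. Neither gene's groups overlapped, yet the tests were at the edge, with -0.45 ± 0.23 for COL4A1 (edgeR adjusted p = 0.103) and 0.43 ± 0.18 for COL4A2 (edgeR adjusted p = 0.0497). The call of COL4A2 was lost on leaving out any one library other than E7, E8 or E9 (edgeR adjusted p = 0.0627 to 0.128). When the HCC1937 libraries were fitted without those of MDA-MB-231, which include E7, the edgeR adjusted p was 1.13e-09 for COL4A1 and 4.45e-14 for COL4A2. COL4A1 reads per 100 COL4A2 reads were 27.6, 28.9 and 29.7 with extract, against 51.8, 53.1 and 53.5 in controls. In MDA-MB-231 the ratio was 25.1 ± 3.46 with extract and 25.8 ± 0.525 in controls, and neither gene was called (edgeR adjusted p = 0.628 for COL4A1 and 0.505 for COL4A2). Both genes were lower in E7 than in any other library, at 20.9 and 99.1 CPM, and without E7 both were called as higher (0.16 for COL4A1, edgeR adjusted p = 0.0169, and 0.10 for COL4A2, edgeR adjusted p = 0.0433). With the offset both were called as lower there, COL4A1 at -0.29 (edgeR adjusted p = 0.012) and COL4A2 at -0.20 (edgeR adjusted p = 0.0016), and with E7 left out as well they were lower too, at -0.18 and -0.19 (edgeR adjusted p = 0.00339 and 1.26e-06). Their direction in MDA-MB-231 thus depends on the processing. In HCC1937 the offset gave -0.65 for COL4A1 (edgeR adjusted p = 2.33e-05) and 0.29 for COL4A2 (edgeR adjusted p = 7.32e-05). COL18A1, the source of the fragment endostatin, fell in MDA-MB-231 (9.71 ± 1.6 CPM with extract, 17.2 ± 1.16 CPM in controls) and in HCC1937 (50 ± 5.1 CPM with extract, 64.3 ± 3.45 CPM in controls). Its call in HCC1937 (-0.36 ± 0.12, edgeR adjusted p = 0.0164) was lost with RLE scaling and without E25, E26 or E32 (edgeR adjusted p = 0.0521 to 0.0982).

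**Figure D3:**
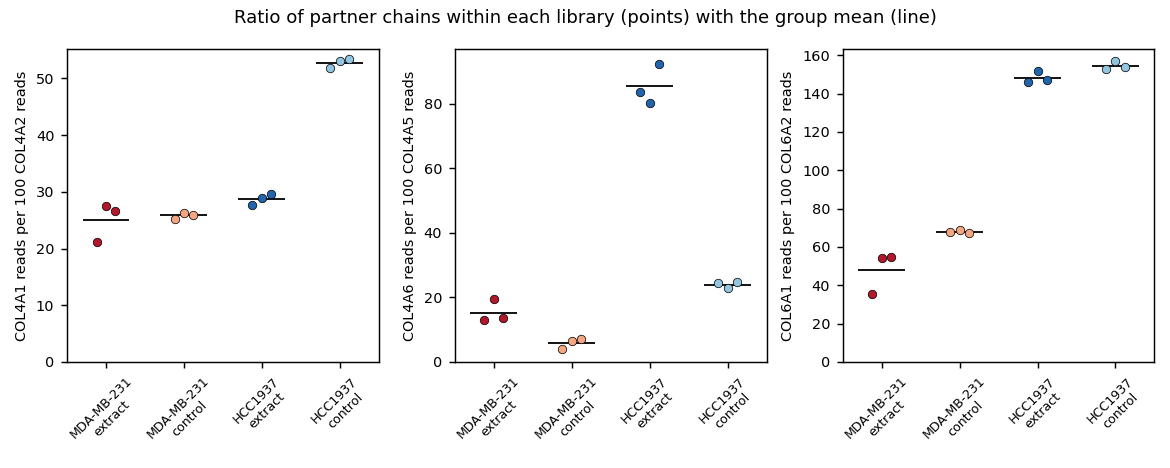
Reads of one chain per 100 reads of its partner within each library (points) with the group mean (line), for COL4A1 over COL4A2, COL4A6 over COL4A5 and COL6A1 over COL6A2, with each line's extract group left of its controls. In HCC1937 the COL4A1 ratio is 27.6 to 29.7 with extract and 51.8 to 53.5 in controls, and the COL4A6 ratio is 80.4 to 92.5 with extract and 22.9 to 24.7 in controls.

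Among the beaded filament, network and anchoring collagens, 5 were tested, of which 2 fell and none rose in MDA-MB-231, while 2 fell and 2 rose in HCC1937. The shares of all genes were 32.7% fallen and 32.9% risen in MDA-MB-231, and 39.0% and 32.7% in HCC1937. COL7A1 forms the anchoring fibrils below the epidermis and other epithelia. It had 1.71, 4.03 and 3.58 CPM in MDA-MB-231 with extract, against 14.7, 14.6 and 17.1 CPM in controls (-2.27 ± 0.24, edgeR adjusted p = 7.46e-06). In HCC1937 it had 1.05, 1.45 and 1.81 CPM with extract, against 9.3, 8.68 and 8.02 CPM in controls (-2.58 ± 0.26, edgeR adjusted p = 3.33e-06), and no groups overlapped. The type VI chains, which form beaded filaments around cells, did otherwise. COL6A1 had 42.0, 57.9 and 56.0 CPM in MDA-MB-231 with extract, against 78.9, 81.4 and 77.6 CPM in controls (-0.61 ± 0.11, edgeR adjusted p = 0.000467). In HCC1937 it had 389, 384 and 395 CPM with extract, against 306, 304 and 284 CPM in controls (0.39 ± 0.11, edgeR adjusted p = 0.00718). COL6A2 had 266, 253 and 268 CPM in HCC1937 with extract, against 200, 193 and 185 CPM in controls (0.45 ± 0.08, edgeR adjusted p = 0.000298), with no overlap. In MDA-MB-231 it had 118, 107 and 102 CPM with extract and 117, 118 and 115 CPM in controls, groups that overlapped (-0.10 ± 0.08, edgeR adjusted p = 0.291). It was called as lower there without E7 (-0.15, edgeR adjusted p = 0.00264) and with the offset (-0.48, edgeR adjusted p = 0.000252). Both rises in HCC1937 ended with the length and GC offset (-0.01 for COL6A1 and 0.00 for COL6A2). COL6A1 reads per 100 COL6A2 reads were 48.2 ± 11 with extract and 67.9 ± 0.725 in controls of MDA-MB-231. In HCC1937 they were 148 ± 3.15 with extract and 155 ± 2.41 in controls. COL8A1 had 370 reads with extract and 302 in controls of MDA-MB-231 and did not pass there, and in HCC1937 it had no reads with extract and 6 in controls, a fall that was lost on leaving out any of E25, E27, E31, E32 or E33.

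The fibril-associated collagens sit on the surface of fibrils, and of 5 tested 2 fell in each line and 1 rose, in MDA-MB-231. The shares of all genes were 32.7% fallen and 32.9% risen in MDA-MB-231, and 39.0% and 32.7% in HCC1937. COL12A1, which bridges type I fibrils to their surroundings, had 40.6, 37.5 and 40.7 CPM in HCC1937 with extract, against 150, 163 and 143 CPM in controls, with no overlap (-1.94 ± 0.30, edgeR adjusted p = 0.000109). With the offset the value was -1.08 (edgeR adjusted p = 8.95e-06). In MDA-MB-231 it had 27.5, 77.0 and 81.0 CPM with extract, against 102, 114 and 116 CPM in controls (-0.84 ± 0.29, edgeR adjusted p = 0.0248). E7 was by far the lowest of these, and without it the value was -0.48 (edgeR adjusted p = 1.43e-09), while the offset ended the call (-0.15, edgeR adjusted p = 0.329), as did the fit of the line alone (edgeR adjusted p = 0.0979) and leaving out E2 or E3 (edgeR adjusted p = 0.0601 and 0.0642). COL16A1 fell in both lines at 1.29 to 5.38 CPM per group, and COL9A2, the gene that rose, had 16.8, 11.1 and 11.3 CPM in MDA-MB-231 with extract and 10.3, 6.72 and 7.73 CPM in controls (0.65 ± 0.26, edgeR adjusted p = 0.0418). The rise of COL9A2 ended with the offset (edgeR adjusted p = 0.633), in the libraries of the line alone (edgeR adjusted p = 0.0509) and on leaving out E2, E3 or E27 (edgeR adjusted p = 0.0556 to 0.142).

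Of the transmembrane collagens, COL13A1 and COL17A1 were tested. COL13A1 had 42.0, 62.3 and 62.6 CPM in MDA-MB-231 with extract, against 154, 154 and 152 CPM in controls (-1.46 ± 0.13, edgeR adjusted p = 1.67e-06). In HCC1937, where the gene was far lower, it had 12.3, 12.2 and 13.0 CPM with extract, against 7.3, 7.32 and 7.77 CPM in controls (0.75 ± 0.14, edgeR adjusted p = 0.000466). No groups overlapped, and the directions were opposite, though the rise in HCC1937 ended with the offset (0.12, edgeR adjusted p = 0.211). COL17A1 had 59.6, 64.4 and 66.5 CPM in HCC1937 with extract, against 42.0, 39.8 and 37.8 CPM in controls (0.67 ± 0.10, edgeR adjusted p = 7.32e-05; 0.39 with the offset). In MDA-MB-231 the extract libraries lay within the control range, at 12.0, 11.7 and 11.0 CPM with extract and 10.7, 10.2 and 13.1 CPM in controls (edgeR adjusted p = 0.899).

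The 5 lysyl oxidases cross-link collagen and elastin, and 1 rose and 1 fell in MDA-MB-231, against 3 and 1 in HCC1937. The shares of all genes were 32.9% risen and 32.7% fallen in MDA-MB-231, and 32.7% and 39.0% in HCC1937. LOX had 26.4, 21.2 and 24.3 CPM in MDA-MB-231 with extract, against 59.7, 61.6 and 63.1 CPM in controls, with no overlap (-1.36 ± 0.16, edgeR adjusted p = 1.39e-05). In HCC1937 it had 21 reads with extract and 70 in controls (-1.57 ± 0.34, edgeR adjusted p = 0.00143). LOX has a transcript of 5102 bases with 39.6% GC, and the offset ended both calls (-0.20 in MDA-MB-231, edgeR adjusted p = 0.237, and -0.05 in HCC1937, edgeR adjusted p = 0.926). With E7 left out as well, the value in MDA-MB-231 was -0.31 (edgeR adjusted p = 0.00222). LOXL3 was higher with extract in both lines. It had 15.5, 15.5 and 14.5 CPM in MDA-MB-231 with extract, against 9.07, 8.43 and 7.82 CPM in controls (0.85 ± 0.11, edgeR adjusted p = 2.98e-05), and 3.36, 3.74 and 3.43 CPM in HCC1937 with extract, against 1.61, 1.55 and 1.83 CPM in controls (1.07 ± 0.13, edgeR adjusted p = 1.17e-05). With the offset both rises passed, at 0.48 and 0.53.

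LOXL2, which also acts inside cells on the route to a mesenchymal state, had 134, 141 and 132 CPM in HCC1937 with extract, against 80.8, 81.1 and 81.3 CPM in controls, with no overlap (0.75 ± 0.14, edgeR adjusted p = 0.000432). With the offset the rise was 0.19 (edgeR adjusted p = 0.0267). In MDA-MB-231 it had 64.8, 103 and 93.0 CPM with extract, against 94.2, 92.1 and 87.7 CPM in controls, groups that overlapped (-0.07 ± 0.14, edgeR adjusted p = 0.692). There it was called as higher without E7 (0.11, edgeR adjusted p = 0.0477), but as lower with the offset (-0.45, edgeR adjusted p = 6.98e-05; -0.38 with E7 left out as well, edgeR adjusted p = 6.77e-10). LOXL1, which works on elastic fibres, had 19.0, 18.9 and 20.6 CPM in HCC1937 with extract and 12.3, 11.2 and 11.5 CPM in controls (0.74 ± 0.11, edgeR adjusted p = 7.22e-05), and in MDA-MB-231 it had 6.54, 4.83 and 5.37 CPM with extract and 5.08, 4.96 and 5.32 CPM in controls (edgeR adjusted p = 0.563). The offset ended the rise of LOXL1 in HCC1937 (0.09, edgeR adjusted p = 0.417), and with it LOXL1 was lower with extract in MDA-MB-231 (-0.52, edgeR adjusted p = 0.000997). LOXL4 averaged 2.54 ± 0.519 CPM with extract and 2.31 ± 0.312 CPM in controls of MDA-MB-231 and had 9 reads in each HCC1937 group, and it passed in neither line.

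Of the 6 tested glycoproteins, 1 rose and 1 fell in MDA-MB-231, and 2 rose and 3 fell in HCC1937. The shares of all genes were 32.9% risen and 32.7% fallen in MDA-MB-231, and 32.7% and 39.0% in HCC1937. FN1 (chr2:215360865-215436068) encodes fibronectin, the scaffold on which cells lay down other matrix. It had 43.9, 148 and 147 CPM in MDA-MB-231 with extract, against 397, 447 and 452 CPM in controls, and 9.27, 12.5 and 12.1 CPM in HCC1937 with extract, against 44.7, 46.6 and 44.2 CPM in controls. The extract libraries lay below all controls in both lines, with E7 the lowest of its group. The log2 fold changes were -1.93 ± 0.34 in MDA-MB-231 (edgeR adjusted p = 0.0004; -1.55 without E7) and -2.00 ± 0.36 in HCC1937 (edgeR adjusted p = 0.000335), and with the offset -1.85 and -1.79. LUM had 1.58, 0.643 and 0.415 CPM in HCC1937 with extract, against 11.5, 11.2 and 10.9 CPM in controls, with no overlap (-3.67 ± 0.39, edgeR adjusted p = 1.57e-05; -2.11 with the offset). The summed fibroblast and smooth muscle list, of which LUM is a member, was lower with extract in the same libraries, as given above. NOTCH3 led that sum, at 89.5 CPM with extract and 221 CPM in controls. TAGLN (7.71 CPM with extract, 4.95 CPM in controls) and ACTA2 (1.99 and 1.09 CPM) had higher means with extract and were not called. Of the 7 tested genes of the list 4 fell and none rose, beside 39.0% of all genes that fell. With the offset 2 fell, beside 34.5% of all genes.

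Thrombospondin-1 (THBS1), an adhesion-modulating glycoprotein that activates TGF-beta, was above every control of its line in 5 of 6 extract libraries. It had 69.1, 154 and 156 CPM in MDA-MB-231 with extract, against 80.9, 80.5 and 76.6 CPM in controls, so that E7 lay below the controls and E8 and E9 above them (0.67 ± 0.23, edgeR adjusted p = 0.0238). Without E7 the value was 0.97 (edgeR adjusted p = 3.88e-19), and in the libraries of the line alone, E7 included, the call was lost (edgeR adjusted p = 0.0999). It was lost also on leaving out any of E1, E2, E3, E8 or E9, at edgeR adjusted p of 0.0553 to 0.0932. In HCC1937 it had 39.3, 42.2 and 43.4 CPM with extract, against 28.9, 32.2 and 30.3 CPM in controls, groups without overlap that did not pass (0.45 ± 0.23, edgeR adjusted p = 0.106). In the HCC1937 libraries alone the rise passed (edgeR adjusted p = 1.38e-08), and with the offset THBS1 rose in both lines, by 1.22 (edgeR adjusted p = 9.53e-07) and 1.20 (edgeR adjusted p = 1.36e-06). TGFBI (chr5:136028988-136063818) had 479, 488 and 495 CPM in HCC1937 with extract, against 261, 266 and 262 CPM in controls (0.89 ± 0.08, edgeR adjusted p = 6.48e-07), and with the offset 0.32 (edgeR adjusted p = 4.09e-05). In MDA-MB-231 it had 351, 361 and 369 CPM with extract, against 334, 354 and 348 CPM in controls, with overlap (0.06 ± 0.07, edgeR adjusted p = 0.49), and with the offset it was lower (-0.41, edgeR adjusted p = 4.56e-06). Without E7 and with no offset it was called as higher (0.09, edgeR adjusted p = 0.0257). SPARC had 50.9, 56.6 and 57.9 CPM in HCC1937 with extract, against 40.5, 38.0 and 38.8 CPM in controls (0.50 ± 0.08, edgeR adjusted p = 0.000113). In MDA-MB-231 it had 7.68, 7.71 and 7.83 CPM with extract and 8.33, 8.54 and 9.05 CPM in controls, a difference that did not pass (-0.16 ± 0.09, edgeR adjusted p = 0.129) but did with the offset (-0.23, edgeR adjusted p = 0.0392).

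**Figure D4:**
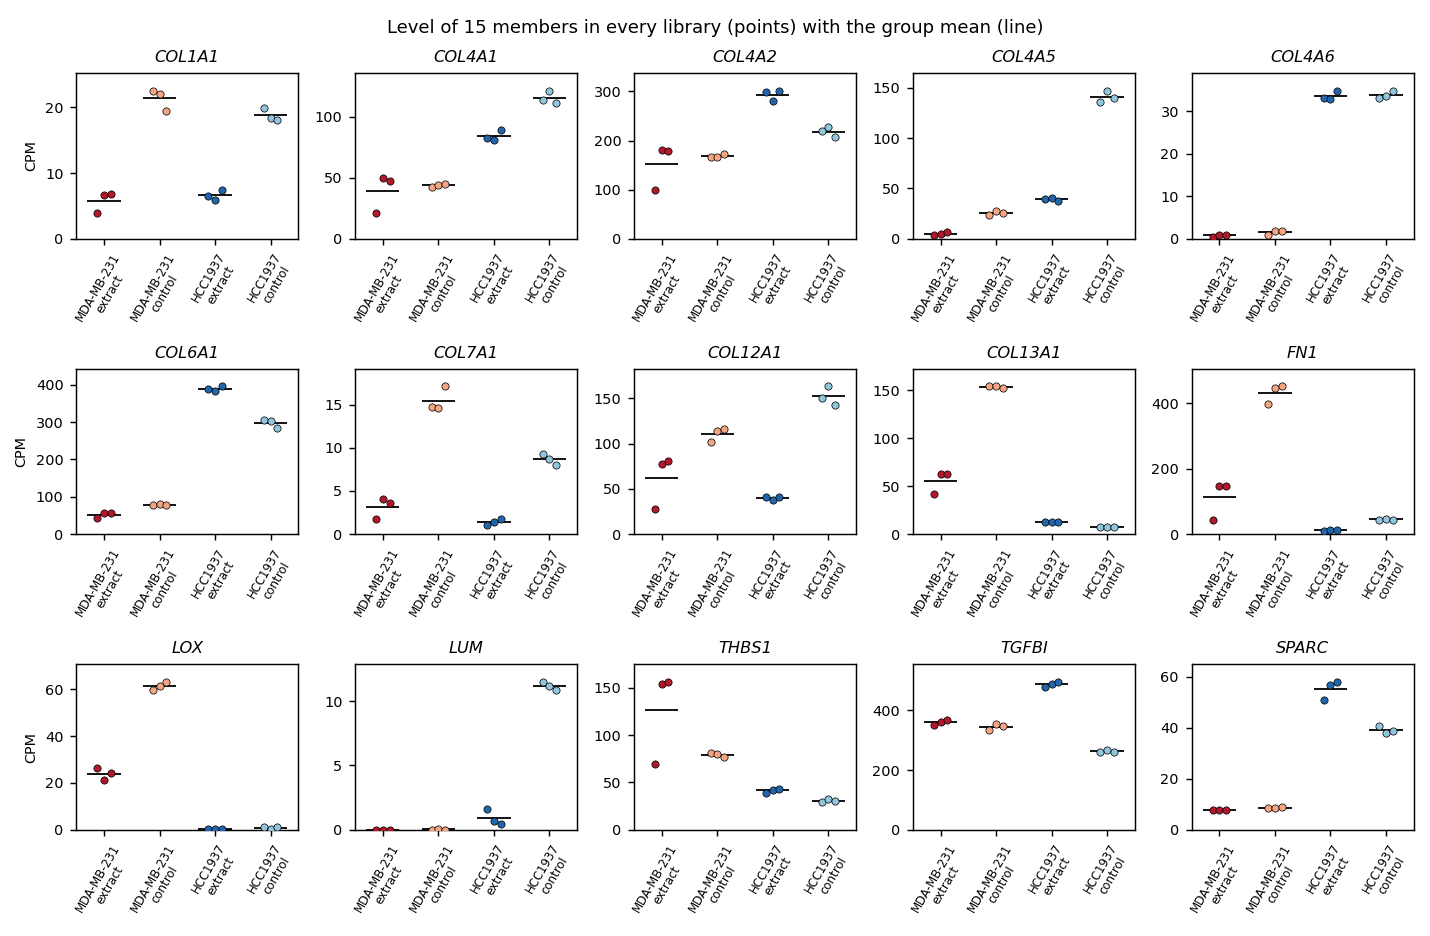
CPM of 15 members in every library (points) with the group mean (line), each line's extract group left of its controls and each axis starting at 0. FN1, COL4A5, COL1A1 and COL7A1 are lower with extract in both lines, TGFBI is higher with extract in HCC1937 (479 to 495 CPM, against 261 to 266 CPM), and in MDA-MB-231 the single low extract point of COL4A1, COL4A2, COL12A1 and THBS1 is E7.

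The difference between the extract effects, that in HCC1937 minus that in MDA-MB-231, was tested for every gene. It was positive in 8 members and negative in 2, beside 11.4% and 20.4% of all genes, and 26 were not called. COL13A1 had the smallest p (2.21 ± 0.19, edgeR adjusted p = 1.28e-05), followed by TGFBI (0.83 ± 0.11, edgeR adjusted p = 0.000155). COL6A1 differed by 0.99 ± 0.15 (edgeR adjusted p = 0.000619), SPARC by 0.65 ± 0.12 (edgeR adjusted p = 0.00139) and COL6A2 by 0.54 ± 0.11 (edgeR adjusted p = 0.00333). COL17A1 (0.65 ± 0.15, edgeR adjusted p = 0.00552), LOXL2 (0.81 ± 0.19, edgeR adjusted p = 0.00814) and LOXL1 (0.64 ± 0.17, edgeR adjusted p = 0.0127) were the other 3 above 0. Of these 8, COL17A1 alone lost its call with the offset (0.52, edgeR adjusted p = 0.105). The 2 below 0, COL5A2 and COL11A2, are genes of under 2 CPM in every group, and without E7 7 members were below 0, against 1 without E9. For FN1 the difference was -0.07 ± 0.48 (edgeR adjusted p = 0.961), but without E7 it was -0.43 (edgeR adjusted p = 0.000466), and for THBS1 it was -0.22 ± 0.33 and -0.50 (edgeR adjusted p = 0.656 and 6.82e-07). For COL1A1 (0.36 ± 0.24) and COL7A1 (-0.31 ± 0.35) the difference did not pass, which does not show that the effects were alike.

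Most of these genes are long and rich in GC, both of which moved with the extract effect over the whole transcriptome. The tested members had a median transcript of 6118 bases and 56.2% GC, against 3376 bases and 49.3% GC over 14054 tested genes with a length, and 24 of the 36 exceeded 5000 bases. Among all genes over 6 kb, those with up to 45% GC had a median log2 fold change of -1.42 in MDA-MB-231, and of -1.76 in HCC1937 (1425 genes, 1 of them a member). It was -0.23 and -0.35 at 45 to 55% GC (790 genes, 8 members), and 0.04 and -0.06 above 55% GC (351 genes, 9 members). At 3 to 6 kb and up to 45% GC, the class of LOX and LUM, the medians were -0.83 and -1.39. Above 55% GC they were upward, at 0.30 and 0.45 for 3 to 6 kb (1490 genes, 9 members). Up to 3 kb and above 55% GC they were 0.68 and 0.81 (2739 genes, 3 members). With a smooth offset for length and GC fitted to each library, 3 members rose and 20 fell in MDA-MB-231, beside 33.6% and 31.5% of all genes, and 7 rose and 17 fell in HCC1937, beside 33% and 34.5%. The member medians were then -0.50 and -0.54. COL4A5, COL7A1, COL1A1, COL27A1 and FN1 kept their falls in both lines with the offset, at -2.39 to -1.27. So did COL4A4 (-1.15 in MDA-MB-231 and -1.26 in HCC1937), COL16A1 (-0.86 and -1.03), COL5A1 (-0.83 and -0.43) and COL18A1 (-0.78 and -0.33). LOX lost its falls, COL12A1 its fall and COL9A2 its rise in MDA-MB-231, and COL6A1, COL6A2, COL13A1, COL15A1 and LOXL1 their rises in HCC1937. The offset also added calls. In MDA-MB-231 these were 8 falls, of COL4A1, COL4A2, COL6A2, COL9A3, LOXL1, LOXL2, SPARC and TGFBI, and in HCC1937 the falls of COL4A1 and COL9A3 and the rise of THBS1. With the offset COL9A3 was at -2.10 in the first line and -1.41 in the second, against -1.52 and -0.80 without it.

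**Figure D5:**
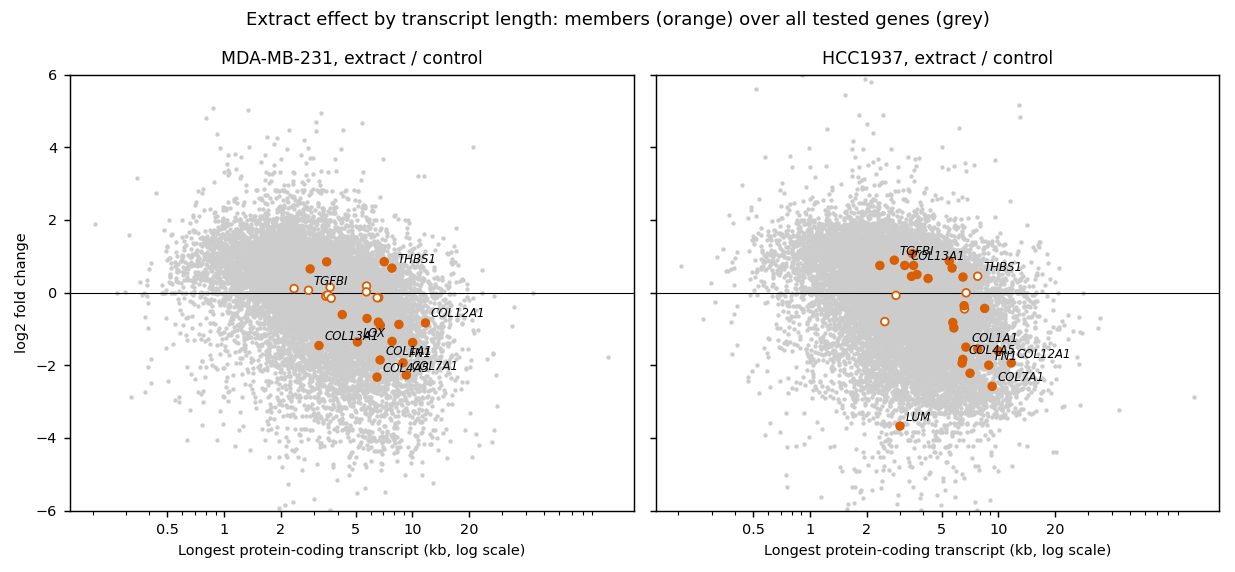
Log2 fold change, extract over control, against the length of the longest protein-coding transcript (kb, log scale) in MDA-MB-231 (left) and HCC1937 (right); grey points are all tested genes with a length, and orange points are members with at least 1 CPM in a group of that line, filled where the adjusted p was under 0.05. Grey points spread downwards at greater length, and the labelled members COL4A5, COL7A1, COL1A1 and FN1 lie below 0 in both panels.

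Genes that fold, process, bind or degrade these proteins were counted as 6 lists. The counts are descriptions beside the shares of all genes tested. Without the offset these shares were 32.9% risen and 32.7% fallen in MDA-MB-231, and 32.7% and 39.0% in HCC1937. The shares with the offset are those given above beside the members. Of 26 genes for folding, hydroxylation and export of collagen, 9 rose and 9 fell in MDA-MB-231, and 12 rose and 9 fell in HCC1937, and with the offset 7 rose and 11 fell in the first line and 12 rose and 6 fell in the second. MIA3 and MIA2, which load procollagen into large vesicles at exit sites of the endoplasmic reticulum, fell in both lines. MIA3 averaged 7.55 ± 1.06 CPM with extract and 51.2 ± 1.33 CPM in controls of MDA-MB-231 (-2.75 ± 0.11, edgeR adjusted p = 2.44e-09), and 12.5 ± 0.645 CPM with extract and 53.3 ± 2.24 CPM in controls of HCC1937 (-2.09 ± 0.10, edgeR adjusted p = 8.76e-09). With the offset MIA3 was at -1.42 in the first line and -0.53 in the second, and MIA2 at -0.98 and -0.96, against -2.15 and -2.55 without it. SERPINH1, the collagen chaperone HSP47, averaged 280 ± 25.4 CPM with extract and 569 ± 3.63 CPM in controls of MDA-MB-231 (-1.02 ± 0.09, edgeR adjusted p = 9.34e-07). In HCC1937 it averaged 391 ± 4.07 CPM with extract and 164 ± 5.19 CPM in controls (1.26 ± 0.09, edgeR adjusted p = 1.31e-07), and both directions were kept with the offset. PLOD2, a lysyl hydroxylase, fell in MDA-MB-231 (17.6 ± 2.46 CPM with extract, 107 ± 3.12 CPM in controls, at -2.60, and -1.48 with the offset). It fell in HCC1937 too, on 2 reads with extract and 44 in controls (-4.05, edgeR adjusted p = 0.000132, and -2.62 with the offset). PLOD3 rose in HCC1937 (122 ± 6.35 CPM with extract, 39 ± 0.369 CPM in controls, at 1.64, and 0.99 with the offset). In MDA-MB-231 PLOD3 rose as well (128 CPM with extract, 82.1 CPM in controls, at 0.64, edgeR adjusted p = 0.000304). That rise ended with the offset (0.15, edgeR adjusted p = 0.0948). Of 7 tested genes for procollagen processing, 2 rose and 2 fell in MDA-MB-231 and 3 rose in HCC1937, FURIN among the rises in both. With the offset 2 rose and 4 fell in MDA-MB-231 and 2 rose and 2 fell in HCC1937.

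Of 18 tested receptors for collagen and fibronectin, 12 fell and 1 rose in MDA-MB-231, with a median of -1.40, and 9 fell and 5 rose in HCC1937, with a median of -0.70. Of all genes tested, 32.7% fell and 32.9% rose in MDA-MB-231 (median 0.00), and 39.0% fell and 32.7% rose in HCC1937 (median -0.16). With the offset these medians were -0.63 and 0.11, and the counts were 10 fallen and 2 risen in MDA-MB-231 and 6 fallen and 9 risen in HCC1937. ITGA1, a chain of a collagen-binding integrin, averaged 2.51 ± 0.701 CPM with extract and 42.6 ± 2.06 CPM in controls of MDA-MB-231 (-4.05 ± 0.20, edgeR adjusted p = 1.44e-08, and -2.20 with the offset). In HCC1937 ITGA1 averaged 1.47 CPM with extract and 2.72 CPM in controls. There it was called as lower without the offset (-0.88, edgeR adjusted p = 0.00374) and as higher with it (1.11, edgeR adjusted p = 0.000369). ITGAV, the alpha chain of several integrins for fibronectin, fell in both lines, by 2.29 in MDA-MB-231 and 2.72 in HCC1937 on the log2 scale, and by 0.63 and 0.83 with the offset. Of 13 tested genes for collagen breakdown, 2 rose and 4 fell in MDA-MB-231, and 8 rose and 3 fell in HCC1937. With the offset 2 rose and 7 fell in MDA-MB-231 (median -0.60, against -0.13 without it), and 6 rose and 1 fell in HCC1937 (median 0.25, against 1.06). MMP1, the interstitial collagenase, rose in both. It averaged 376 ± 6.76 CPM with extract and 6.39 ± 0.263 CPM in controls of HCC1937 (5.88 ± 0.11, 58.8-fold, edgeR adjusted p = 5.34e-11; 6.20 with the offset), and 108 ± 11.1 CPM with extract and 47.5 ± 1.49 CPM in controls of MDA-MB-231 (1.18 ± 0.09, edgeR adjusted p = 2.91e-07). The cathepsins CTSB and CTSL, lysosomal proteases that also cut collagen, rose in HCC1937, to 939 ± 8.53 CPM with extract against 256 ± 0.57 CPM in controls for CTSB. With the offset CTSL was at 0.56 in HCC1937, against 1.17 without it. In MDA-MB-231 CTSL fell (-0.34 ± 0.09, edgeR adjusted p = 0.00581), and with the offset its value there was -0.90.

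Of 13 tested genes for small proteoglycans and elastic fibres, 2 rose and 7 fell in MDA-MB-231 and 1 rose and 5 fell in HCC1937, and with the offset none rose and 9 fell in the first line and 2 rose and 8 fell in the second. Without the offset 32.9% of all genes tested rose and 32.7% fell in MDA-MB-231, and 32.7% rose and 39.0% fell in HCC1937. FBN1, the microfibril protein fibrillin-1, fell in both lines, to 20.2 ± 8.92 CPM with extract against 57.7 ± 6.33 CPM in controls of MDA-MB-231 and to 47.1 ± 1.28 CPM against 128 ± 7.6 CPM in HCC1937. Its log2 fold changes were -1.50 in the first line and -1.44 in the second, and with the offset -0.85 and -0.64. Of 18 other matrix glycoproteins tested, 3 rose and 10 fell in MDA-MB-231 and 6 rose and 5 fell in HCC1937, where the offset gave 6 and 7. CCN2, the connective tissue growth factor, rose in both, with 432 ± 9.42 CPM with extract and 110 ± 3.57 CPM in controls of MDA-MB-231 (1.98 ± 0.09, edgeR adjusted p = 6.14e-09) and 18.5 ± 0.77 CPM with extract and 8.21 ± 0.87 CPM in controls of HCC1937 (1.17 ± 0.09, edgeR adjusted p = 3.34e-07). With the offset CCN2 was at 1.47 and 0.65. TNC, tenascin-C, averaged 221 ± 108 CPM with extract and 527 ± 24.4 CPM in controls of MDA-MB-231 (-1.25 ± 0.30, edgeR adjusted p = 0.00318, and -0.89 without E7). In HCC1937 TNC rose, to 324 ± 6.78 CPM with extract against 174 ± 5.91 CPM in controls (0.90 ± 0.30, edgeR adjusted p = 0.0178). With the offset TNC was at -1.38 in MDA-MB-231 and 0.81 in HCC1937. MATN2 and SPOCK1 fell in HCC1937, to 4.78 ± 0.418 CPM with extract against 25.4 ± 0.628 CPM in controls and to 37.6 ± 2.78 CPM against 125 ± 8.18 CPM. With the offset SPOCK1 was at -1.01, against -1.73 without it. In MDA-MB-231 both fell by less, MATN2 at -0.37 (edgeR adjusted p = 0.0351) and SPOCK1 at -0.44 (edgeR adjusted p = 0.0261). With the offset MATN2 was at -0.47 there, and the call of SPOCK1 ended (-0.03, edgeR adjusted p = 0.881).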

How the data were processed

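Poly-A RNA of 12 libraries was sequenced by the authors, who per the submitters' processing notes used FastQC 0.12.1, fastp 0.23.4, Salmon 1.10.3, DESeq2 and R 4.4.1 with GRCh38. The deposited table holds expected counts (estimated reads per gene, not scaled for depth), which were rounded to whole numbers. The annotation behind it is not given in the sources used here, and 1 gene without a symbol was left out. Groups were taken from the sample titles. Genes were filtered with edgeR's filterByExpr (edgeR 4.0.16, R 4.3.3), which kept 14133 of 19516, and scaled by TMM. One model with 4 groups was tested by quasi-likelihood F tests with Benjamini-Hochberg adjustment over all genes tested, and a gene rose or fell at an adjusted p under 0.05. The SE is the log2 fold change divided by the square root of F. TMM values are relative, so a change in total RNA would not show.

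Alternatives were RLE factors, scaling without mitochondrial genes, no filter, DESeq2 1.42.0, fits of 1 line, leaving out each library, and a per-library offset for length and GC (mgcv 1.9.3, GENCODE 29 longest protein-coding transcripts), also with E7 left out, which was added after seeing the data. On simulated counts the test recovered 97% to 98% of 1.5-fold changes with 3.88% to 4.83% false among calls. With a simulated length trend the offset recovered 94% to 95%, with 5.83% and 10.6% false. Every simulated library had a spread near that of the groups without E7, and 100 genes changed at each simulated size. In the data the biological coefficient of variation of the MDA-MB-231 extract group was 0.296, and far more genes were called. The simulated rates therefore do not carry over to the comparisons above.

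Members and lists were chosen with earlier results of these data known. Named members are those called with at least 5 CPM in a group, a size of at least 1 on the log2 scale in the extract comparisons, ordered by p, together with FN1, SPARC, THBS1, TGFBI and the LOX family. Others are given by single values. Outside this rule, COL4A1, COL4A2, COL4A6 and COL6A2, and COL9A2 in MDA-MB-231, were described in full after their values were seen. Gene positions and sequences are from RefSeq (GRCh38.p14). The p-values measure only how these libraries spread, which may be technical; intervals and floors cover counting error only. Some items are not reported here.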

Additional observations from a re-analysis of the deposited data

Results flagged for a closer look

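In 10 members the extract effect differed between the lines by the test of the difference itself, HCC1937 minus MDA-MB-231 on the log2 scale. It was positive for COL13A1 (2.21), COL6A1 (0.99), TGFBI (0.83), LOXL2 (0.81), COL17A1 (0.65), SPARC (0.65), LOXL1 (0.64) and COL6A2 (0.54). It was negative for COL5A2 (-3.07, edgeR adjusted p = 0.000572) and COL11A2 (-2.29, edgeR adjusted p = 0.0185). In HCC1937, COL5A2 had 23 reads over the extract libraries and 121 over the controls, and COL11A2 had 37 and 160. In MDA-MB-231, COL5A2 had 103 with extract and 53 in controls, and COL11A2 had 33 and 26. COL11A2 lost its call without E3 or without E9 (edgeR adjusted p = 0.0501 and 0.0515). Line, medium and extract concentration cannot be told apart in these differences.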

How the results depend on the processing

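No paired analysis was possible because the groups compared share no replicate numbers. Set against their alternatives, 266 values of the counts of calls stayed within 1.5 times and 14 did not. In MDA-MB-231 the members that rose (4) numbered 1 in the libraries of the line alone and 1 to 9 on leaving out a library (9 without E7). In HCC1937 the members that rose (11) numbered 7 with the offset. Members with a negative difference between the lines (2) numbered 5 with the offset and 1 to 7 on leaving out a library (7 without E7). Of all genes, 1607 had a positive difference, against 2440 by DESeq2, 2610 with the offset and 1303 to 3552 on leaving out a library, and 2885 a negative one, against 2306 to 4797 (3552 and 4797 are without E7). The sign turned in MDA-MB-231 with the offset, with all libraries and with E7 left out, for TGFBI (-0.41 and -0.42), LOXL1 (-0.52 and -0.55) and LOXL4 (-0.22 and -0.28), and in HCC1937 for LOXL4 (-0.36 and -0.36). On leaving out a library, LOXL1 ran from 0.00 to 0.21 and LOXL2 from -0.20 to 0.11 in MDA-MB-231 (0.00 and 0.11 without E7), and LOXL4 from -0.04 (without E9) to 0.27 in MDA-MB-231 and from -2.15 (without E32) to 0.72 in HCC1937. With the sign turned, TGFBI and LOXL1 passed under the offset and LOXL2 without E7, and LOXL4 in none. RLE scaling moved the median of all genes in HCC1937 to -0.06, against -0.16. The causes of these shifts were not tested.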
